A study of Rattus with 27 samples.

Results

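The genes described here are 6 CC chemokines (Ccl2, Ccl3, Ccl4, Ccl5, Ccl7 and Ccl20) and 2 CC chemokine receptors (Ccr1 and Ccr2). They are part of a family grouped by name, and were chosen with earlier results of these data known. All 8 had a value, among 14506 genes measured by a probe set with a single gene symbol, and each was read by exactly 1 probe set. CC chemokines are small secreted proteins that guide white blood cells along a gradient by binding G-protein-coupled receptors on the cell surface. In the brain they are made mainly by activated microglia, astrocytes, endothelium and invading leukocytes, and after ischaemia they are known for drawing monocytes and other leukocytes into the injured tissue. The pairing of ligands with receptors is loose: Ccl2 and Ccl7 bind Ccr2, Ccl3, Ccl5 and Ccl7 bind Ccr1, and Ccl20 binds Ccr6 only. In the RefSeq annotation of rat assembly GRCr8, Ccl2 lies next to Ccl7, Ccl3 lies next to Ccl4, and Ccr1 is separated from Ccr2 by Ccr3 and Ccr1l1.

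The series holds 27 arrays of 9 Sprague Dawley rats. Each rat gave brain homogenate, spleen homogenate and white blood cells taken from its whole blood, with 1 array per tissue. Each tissue had 3 arrays of sham-operated rats, which had anaesthesia and vessel separation only, 3 of rats titled model and 3 of rats titled vehicle, all at 6 h. In the model and vehicle rats a main artery of the brain was closed (MCAO, middle cerebral artery occlusion) to mimic ischaemic stroke. By the treatment protocol 1 of the MCAO groups was given the Yiqi Jiedu formulae (YJ, 25 mg/kg) and the other was its vehicle control, and the labels do not settle which titled group received YJ. The groups are therefore called model-labelled and vehicle-labelled, and no effect of YJ can be read from how they differ. A difference between all 6 MCAO arrays and sham includes part of any effect of YJ. Age and sex are not given in the labels used here, and homogenates do not separate the infarct from the rest of the brain.

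Values are log2 intensities. They ran from 1.53 to 13.49, and the correlation across genes between replicate arrays was 0.968 to 0.995. Differences are log2 differences with the standard error (SE) of the limma fit, and a gene rose or fell where its Benjamini-Hochberg adjusted p over 14506 genes was under 0.05. With 3 arrays per group the number of rats limits the precision. Tissue markers matched the labels: the mean of 10 neuronal markers lay between 9.39 and 9.79 on brain arrays and between 4.02 and 4.57 on blood and spleen arrays. A pair of brain arrays stood apart on regional markers. Relative to the sham mean, the mean of 6 cortical markers was -1.25 in sham 5 and -1.12 in vehicle 2, against -0.01 to 0.71 on the other brain arrays. The mean of 10 markers of hypothalamus and thalamus was 1.64 in sham 5 and between -1.06 and -0.46 on the other arrays. In the blood, the mean of 9 erythroid markers lay between 9.24 and 10.17 on the vehicle-labelled arrays and between 6.98 and 7.91 on the others. In bulk tissue, fewer cells of a type and less RNA per cell cannot be told apart.

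**Figure D1:**
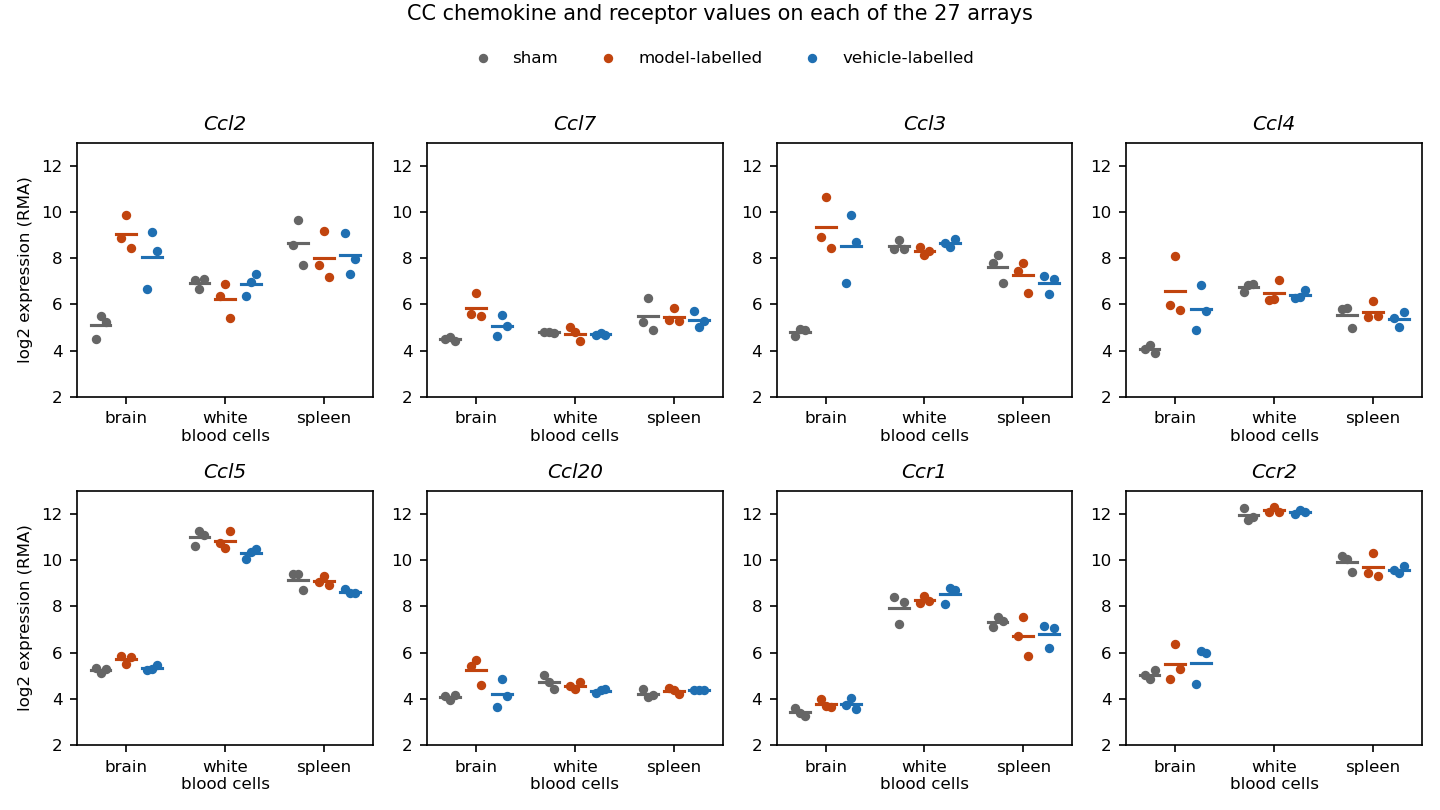
Log2 expression (RMA values, y axis) of the 8 genes on each of the 27 arrays, by tissue (x axis) and group (colour); points are arrays and bars are means of 3 arrays. In the brain, Ccl2 lies between 4.51 and 5.50 on sham arrays and between 6.65 and 9.86 on MCAO arrays, and Ccl3 between 4.64 and 4.94 and between 6.93 and 10.65; Ccr1 and Ccr2 are lower on every brain array than on any blood array.

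The first comparison asked which of these genes differed between ischaemic and sham brains. The monocyte-attracting chemokine Ccl2 and the macrophage inflammatory protein Ccl3 rose in the brain after MCAO, by 3.45 and 4.10 on the log2 scale (11.0-fold and 17.2-fold). Against this, 0.800% of all genes passed the test in either direction. The other 6 genes did not pass it, although all 8 differences were positive, with a median of 0.81 beside 0.02 over all genes. Of the 8 genes 4 (Ccl2, Ccl7, Ccl3 and Ccl4) were higher on every MCAO brain array than on every sham brain array, a separation that 3.10% of all genes showed. Because the 8 were chosen with earlier results of these data known, their counts and medians beside all genes, here and below, describe them only. They do not test the CC family, whose other measured genes are given further on.

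Ccl2, the main ligand of Ccr2, measured 4.51, 5.50 and 5.26 in sham brains 3, 4 and 5. It reached 8.86, 9.86 and 8.44 in model-labelled brains 1, 2 and 3 and 6.65, 9.13 and 8.32 in vehicle-labelled brains 2, 4 and 5. All 6 MCAO brains lay above the sham range, and vehicle 2 was the lowest of them by a clear margin. The difference of both MCAO groups from sham was 3.45 ± 0.50 (SE; 95% confidence interval 2.32 to 4.58, limma adjusted p = 0.0153). Ccl7, the neighbouring gene and a ligand of Ccr1 and Ccr2, measured 4.50, 4.57 and 4.43 in sham brains, 5.59, 6.51 and 5.48 in model-labelled brains and 4.64, 5.54 and 5.06 in vehicle-labelled brains. The groups did not overlap, but vehicle 2 exceeded the highest sham brain by only 0.07. The Ccl7 difference of 0.97 ± 0.25 missed the threshold (limma adjusted p = 0.155).

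Ccl3, a ligand of Ccr1, measured 4.64, 4.94 and 4.89 in sham brains, within a narrow range. Its values were 8.94, 10.65 and 8.43 in model-labelled brains and 6.93, 9.88 and 8.72 in vehicle-labelled brains. The lowest MCAO brain was 1.99 above the highest sham brain, the widest gap among the 8 genes, and the difference was 4.10 ± 0.61 (95% confidence interval 2.72 to 5.48, limma adjusted p = 0.0174). Ccl4, its neighbour and a further macrophage inflammatory protein, measured 4.05, 4.23 and 3.92 in sham brains, 5.96, 8.10 and 5.74 in model-labelled brains and 4.89, 6.85 and 5.70 in vehicle-labelled brains. Every MCAO brain was above every sham brain by at least 0.66, yet the MCAO arrays spread widely and the difference of 2.14 ± 0.53 did not pass (limma adjusted p = 0.141). From high to low, the MCAO brains stood in the same order for Ccl2 and Ccl4, with model 2 first, then vehicle 4, model 1, model 3, vehicle 5 and vehicle 2.

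The T-cell and platelet chemokine Ccl5 measured 5.35, 5.13 and 5.30 in sham brains, 5.86, 5.49 and 5.82 in model-labelled brains and 5.26, 5.30 and 5.46 in vehicle-labelled brains. The vehicle-labelled brains overlapped the sham brains, and the MCAO difference was 0.27 ± 0.11 (limma adjusted p = 0.408). Ccl20, which attracts Ccr6-bearing lymphocytes and dendritic cells, measured 4.13, 3.94 and 4.15 in sham brains, 5.42, 5.68 and 4.60 in model-labelled brains and 3.64, 4.85 and 4.12 in vehicle-labelled brains. Model-labelled brains were above all sham brains, whereas vehicle-labelled brains fell on both sides of them, and the MCAO difference was 0.65 ± 0.28 (limma adjusted p = 0.43).

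Neither receptor passed the test in the brain. Ccr1, found on monocytes and neutrophils, measured 3.61, 3.37 and 3.26 in sham brains, 3.99, 3.70 and 3.64 in model-labelled brains and 3.72, 4.02 and 3.58 in vehicle-labelled brains. The groups overlapped only at vehicle 5, and the MCAO difference was 0.36 ± 0.14 (limma adjusted p = 0.354). Ccr2, the receptor of inflammatory monocytes, measured 5.01, 4.84 and 5.25 in sham brains, 4.85, 6.37 and 5.30 in model-labelled brains and 4.65, 6.06 and 5.98 in vehicle-labelled brains. Model 1 lay within the sham range and vehicle 2 below it, and the difference of 0.50 ± 0.37 has an interval from -0.33 to 1.34 (limma adjusted p = 0.683).

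The 2 calls in the brain were lost without some single arrays, with differences of similar size. Without sham 3 the differences were 3.16 for Ccl2 and 4.01 for Ccl3 (both limma adjusted p = 0.0802), without sham 4 they were 3.66 (0.0773) and 4.16 (0.0942), and without vehicle 5 that of Ccl3 was 4.05 (0.0509). A variance prior with trend left adjusted p-values of 0.0524 and 0.0582, and over all alternatives they ran from 0.000144 to 0.133 for Ccl2 and from 2.86e-06 to 0.198 for Ccl3, with differences of 3.16 to 3.90 and 3.76 to 4.53.

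Set apart by group, with both comparisons sharing the same sham arrays, the model-labelled brains gave 2 calls and the vehicle-labelled brains 0. Ccl2 rose by 3.96 ± 0.58 (15.6-fold, limma adjusted p = 0.0114) and Ccl3 by 4.52 ± 0.71 (22.9-fold, adjusted p = 0.0169) in model-labelled brains, where 1.16% of all genes passed. Ccl7 stood at 1.36 ± 0.28 (adjusted p = 0.061), Ccl4 at 2.53 ± 0.62 (0.108), Ccl20 at 1.16 ± 0.32 (0.158) and Ccl5 at 0.46 ± 0.13 (0.164). Of the 8 genes 7, all but Ccr2, were higher on every model-labelled brain array than on every sham array, against 11.7% of all genes. The gap between the groups was only 0.14 for Ccl5 and 0.03 for Ccr1. On these arrays Ccr1 ran from 3.26 to 3.99, low values that may hold little signal. In vehicle-labelled brains Ccl3 differed from sham by 3.69 ± 0.71 (adjusted p = 0.116) and Ccl2 by 2.94 ± 0.58 (adjusted p = 0.127), and no gene of the 8 passed. In that comparison 0.0483% of all genes passed, 4 of the 8 had an unadjusted p under 0.05 (9.33% of all genes did), and 4 (Ccl2, Ccl7, Ccl3 and Ccl4) did not overlap with sham, against 7.93% of all genes. The medians of the 8 were 1.26 and 0.56, beside 0.03 and 0.01 over all genes.

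Single arrays moved these counts. Without vehicle 2, the brain low in cortical markers, the vehicle-labelled differences were 3.64 for Ccl2 (limma adjusted p = 0.00876) and 4.48 for Ccl3 (0.0127), which both passed, and without both vehicle 2 and sham 5 they were 3.72 (0.0044) and 4.51 (0.00529). Over all alternatives these adjusted p-values ran from 0.0044 to 0.546 and from 0.000277 to 0.614. For model-labelled brains, leaving out model 2, the highest array, gave 3.56 for Ccl2 (0.0576) and 3.86 for Ccl3 (0.0601). Leaving out sham 3 gave 3.67 (0.0504) and 4.43 (0.0597), and Ccl3 also missed the threshold without sham 4 (4.58, 0.0649) and without model 1 (4.72, 0.0589). Without vehicle 2, the Ccl7 difference of 1.36 passed (0.0338). The model-labelled adjusted p-values ran over all alternatives from 0.000122 to 0.137 for Ccl2, from 3.47e-06 to 0.224 for Ccl3 and from 0.00608 to 0.456 for Ccl7.

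**Figure D2:**
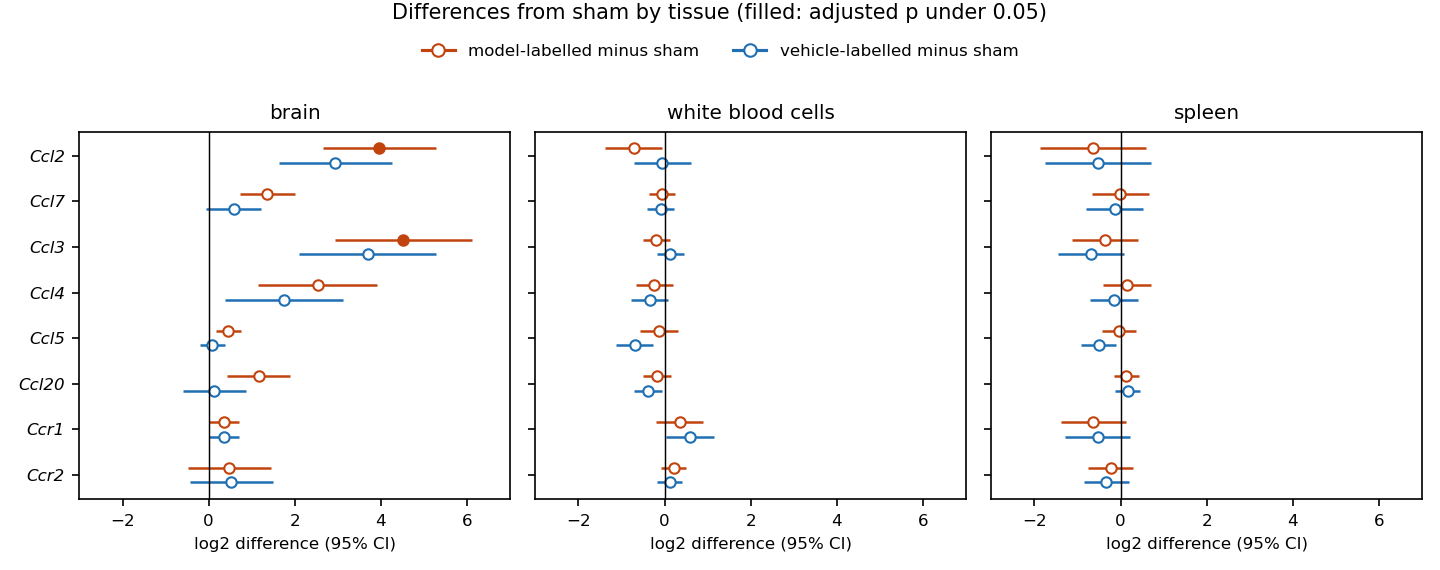
Log2 difference from sham (x axis, 95% confidence interval of the limma fit) of each gene in each tissue, for model-labelled and vehicle-labelled rats; filled points have an adjusted p under 0.05. Only Ccl2 and Ccl3 in model-labelled brains are filled, at 3.96 and 4.52, and in blood and spleen every point lies between -0.71 and 0.59.

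Markers of some leukocytes were higher on average in MCAO brains. The mean of 9 monocyte and macrophage markers ran from 5.42 to 5.75 in sham brains, from 6.47 to 6.57 in model-labelled brains and from 5.68 to 6.29 in vehicle-labelled brains. After MCAO 1 of the 9 passed the test, as did 0.800% of all genes: the lipopolysaccharide co-receptor Cd14 at 1.98 ± 0.27 (limma adjusted p = 0.0125), and Nr4a1, which neurons also induce, stood at 2.44 ± 0.48 (adjusted p = 0.0566) and passed without sham 5 (1.68, 0.0258) or vehicle 2 (2.50, 0.0493), in a range of 0.000237 to 0.169. Together Cd14 and Nr4a1 made up most of the rise in the mean of the 9 monocyte and macrophage markers. The mean of 10 neutrophil markers was 4.19 to 4.38 in sham brains, 4.73 to 4.94 in those labelled model and 4.44 to 4.51 in those labelled vehicle, and 0 of the 10 passed. The mean of 9 microglial markers went the other way, from 6.15 to 6.52 in sham brains to 5.69 to 5.92 and 5.66 to 6.00 in the MCAO groups, where 1 fell, Olfml3 (-0.91 ± 0.16, adjusted p = 0.0366). The Cd14 call held in 7 of 9 fits without an array and was lost without sham 3 (1.91, 0.0709) or sham 4 (1.96, 0.0811), in a range of 9.39e-06 to 0.156 over all alternatives. That of Olfml3 held in 3 of 9, without vehicle 2, vehicle 5 or model 3, and was lost without any other array, at -0.80 and 0.136 without sham 3 for example, in a range of 0.00122 to 0.275. T-cell markers stayed between 4.10 and 4.29 on all brain arrays. Vehicle 2, the MCAO brain with the lowest Ccl2, also had the lowest monocyte mean of the MCAO brains, 0.07 above the sham mean. The part of these cell types in the chemokine differences was not tested.

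**Figure D3:**
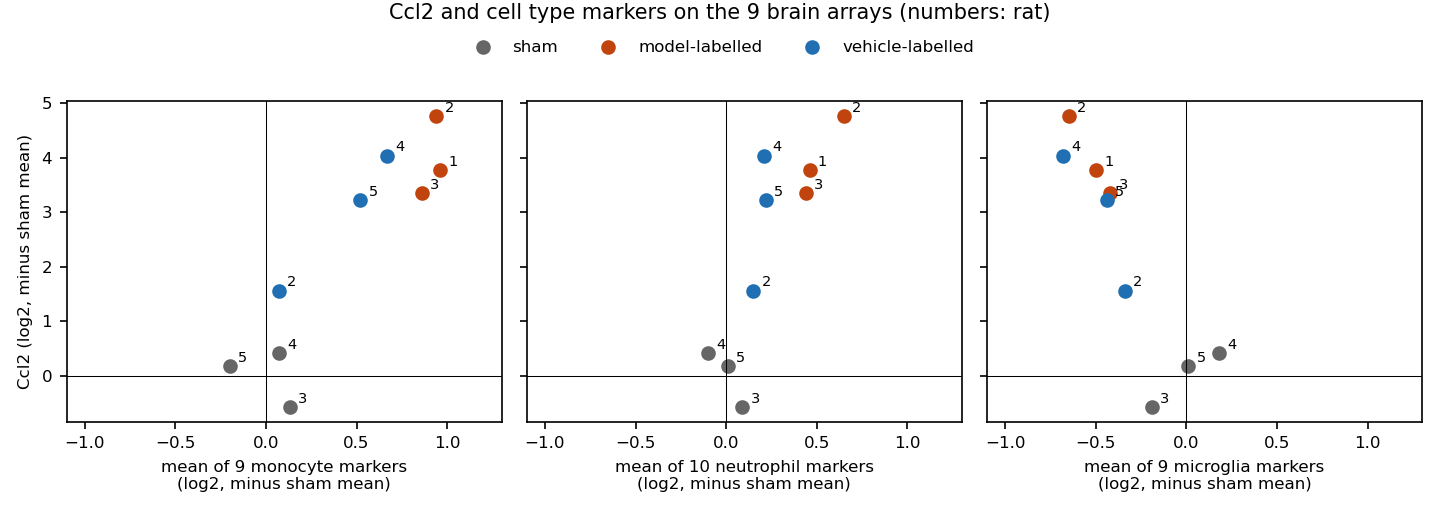
Ccl2 on the 9 brain arrays (y axis, log2 value minus sham mean) against the mean of 9 monocyte, 10 neutrophil and 9 microglial markers (x axes, log2, minus sham mean); each point is 1 rat, numbered as in its label. Model-labelled brains lie 0.86 to 0.96 above the sham mean for monocyte markers and -0.65 to -0.42 for microglial markers. Over all MCAO brains, most of the monocyte shift comes from Cd14 and Nr4a1.

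Without the operation, these genes were mostly lower in brain than in blood cells or spleen. In sham rats, 7 of the 8 were lower in brain than in white blood cells, all but Ccl7, and 7 were lower in brain than in spleen, all but Ccl20. These tissue contrasts called 55.1% and 51.2% of all genes. The receptor Ccr2 measured 5.03 ± 0.21 (SD, n = 3) in sham brain, 11.96 ± 0.25 in blood and 9.91 ± 0.37 in spleen, and Ccr1 3.41 ± 0.18, 7.94 ± 0.62 and 7.33 ± 0.24. The brain-to-blood differences were -6.93 ± 0.20 for Ccr2 (limma adjusted p = 3.69e-10), -5.73 ± 0.21 for Ccl5 (adjusted p = 1.88e-09) and -4.52 ± 0.26 for Ccr1 (adjusted p = 5.5e-08). The labels do not say whether the 3 tissues shared a normalization, which limits levels set across tissues.

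Between sham blood and sham spleen, 5 of the 8 were higher in blood (Ccl3, Ccl4, Ccl5, Ccl20 and Ccr2), Ccl2 was lower, and Ccl7 and Ccr1 did not pass, against 33.7% of all genes called. Ccl2 had its highest sham level in spleen, 8.65 ± 0.97, beside 6.94 ± 0.24 in blood (difference blood minus spleen -1.71 ± 0.41, limma adjusted p = 0.00803). Ccl5 ran the other way, with 10.99 ± 0.33 in blood and 9.15 ± 0.40 in spleen (difference 1.83 ± 0.21, adjusted p = 7e-05). Ccl3 (0.91, adjusted p = 0.0224) lost its call without blood sham 3 (0.97, 0.05), blood sham 4 (0.77, 0.0792) or spleen sham 5 (0.55, 0.0555), in a range of 0.00612 to 0.0792 over all alternatives. Ccl20 (0.51, adjusted p = 0.0348) lost it without blood sham 3 (0.36, 0.113), blood sham 4 (0.52, 0.0728), spleen sham 4 (0.43, 0.125) or spleen sham 5 (0.48, 0.102), in a range of 0.0125 to 0.125. Ccr1 passed without blood sham 4 (0.96, 0.00289) and Ccl7 without spleen sham 5 (-0.98, 0.019).

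Set beside these sham levels, MCAO brains reached the range of immune tissue for some ligands and not for the receptors. Ccl2 exceeded the highest sham blood array on 5 of 6 MCAO brain arrays, but the highest sham spleen array on only 1 of 6. Ccl3 exceeded the highest sham spleen array on 5 of 6 and the highest sham blood array on 3 of 6. Ccl4 exceeded the highest sham spleen array on 3 of 6 and lay below the lowest sham blood array on 4 of 6. For Ccl5, Ccr1 and Ccr2, all 6 MCAO brains stayed below the lowest sham blood and sham spleen arrays. Ccr2 reached at most 6.37 in an MCAO brain, whereas the lowest sham spleen measured 9.50. These are counts of arrays, with no test, and the share of all genes with such separations was not counted. Separation of brain from these tissues is common: 55.1% and 51.2% of all genes were called between sham brain and sham blood or spleen.

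In white blood cells none of the 8 genes passed in any comparison with sham, although 0.931% of all genes passed for both MCAO groups, 2.01% for the vehicle-labelled and 0% (0 genes) for the model-labelled group. At an unadjusted p under 0.05 the limma fit held 2, 3 and 1 of the 8 in the same order, against 9.89%, 13.4% and 6.07% of all genes. Ccr2 lay between 11.76 and 12.30 on all 9 blood arrays, and its MCAO difference was 0.16 ± 0.12 (95% confidence interval -0.09 to 0.41). Ccr1 measured 8.39, 7.23 and 8.19 in sham, 8.14, 8.47 and 8.24 in model-labelled and 8.09, 8.78 and 8.70 in vehicle-labelled blood. Sham 4 was the lowest of the 9 arrays, and the difference was 0.47 ± 0.22 (limma adjusted p = 0.517). Ccl3 stayed between 8.15 and 8.83, with a difference of -0.03 ± 0.13. Ccl2 was lower in model 3, at 5.41, than on the other 8 arrays, which ran from 6.38 to 7.31, and its difference was -0.38 ± 0.27 (interval -0.96 to 0.19). Ccl4 and Ccl7 differed by -0.29 ± 0.17 and -0.07 ± 0.12.

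Ccl5 and Ccl20 were lower on every vehicle-labelled than on every sham blood array, as were 9.89% of all genes. Ccl5 measured 10.62, 11.27 and 11.07 in sham, 10.73, 10.53 and 11.28 in model-labelled and 10.06, 10.35 and 10.47 in vehicle-labelled blood, a vehicle-to-sham difference of -0.69 ± 0.20 (limma adjusted p = 0.123). Ccl20 measured 5.04, 4.72 and 4.44 in sham, 4.54, 4.41 and 4.74 in model-labelled and 4.23, 4.38 and 4.41 in vehicle-labelled blood, a difference of -0.39 ± 0.15 (adjusted p = 0.27). On the vehicle-labelled blood arrays all 9 measured erythroid markers and 6 of 10 neutrophil markers rose against sham, with medians of 2.66 and 0.86, where 2.01% of all genes passed. The mean of 10 T-cell markers lay between -0.65 and -0.06 relative to the sham mean there, and 1 of the 10 fell. Their part in the Ccl5 and Ccl20 values was not tested.

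In the spleen none of the 8 passed either, where 0.0965% (both MCAO groups), 0.0414% (model-labelled) and 0.0483% (vehicle-labelled) of all genes did. At an unadjusted p under 0.05 the limma fit held 0, 0 and 1 of the 8, against 8.16%, 9.50% and 9.35% of all genes. Ccl2 varied most within groups: it measured 8.57, 9.66 and 7.72 in sham, 7.69, 9.16 and 7.18 in model-labelled and 9.11, 7.30 and 7.96 in vehicle-labelled spleens. The 3 groups overlapped, and the MCAO difference was -0.58 ± 0.49 (95% confidence interval -1.64 to 0.48). Ccl3 measured 7.78, 8.16 and 6.91 in sham, 7.44, 7.81 and 6.51 in model-labelled and 7.24, 6.45 and 7.11 in vehicle-labelled spleens (-0.52 ± 0.30). Ccr1 ran from 7.09 to 7.56 in sham and from 5.84 to 7.52 in MCAO spleens (-0.58 ± 0.30), and Ccr2 from 9.50 to 10.20 and from 9.31 to 10.30 (-0.27 ± 0.21). Ccl4, Ccl7 and Ccl20 differed by 0.00 ± 0.22, -0.08 ± 0.26 and 0.15 ± 0.11. Sham 4 was the highest of 9 for 5 of the 8 genes, and model 2 the highest of the 6 MCAO spleens for 7.

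**Figure D4:**
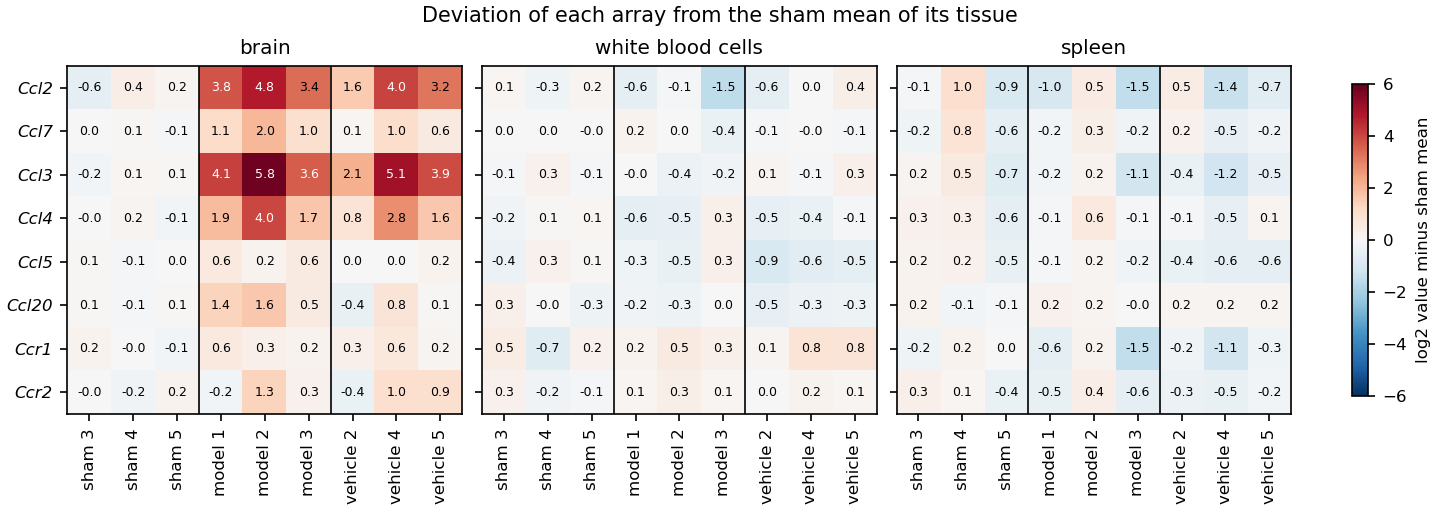
Deviation of each array from the sham mean of its tissue (log2, colour and printed value) for the 8 genes (rows) and 27 arrays (columns). In the brain, model 2 is the highest array for 6 of the 8 genes and vehicle 2 the lowest MCAO array for 7; no block of like size appears in blood or spleen.

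Whether the brain response differed from that of the other tissues was tested in 1 fit of all 27 arrays. For each gene this fit pooled the variance of all tissues. The MCAO difference of Ccl2 was larger in brain than in blood by 3.84 ± 0.73 (limma adjusted p = 0.00527) and larger than in spleen by 4.04 ± 0.73 (adjusted p = 0.00484). That of Ccl3 was larger by 4.13 ± 0.64 (adjusted p = 0.000843) and 4.63 ± 0.64 (adjusted p = 0.000407). Ccl4 passed against blood, at 2.43 ± 0.55 (adjusted p = 0.0276), and not against spleen, at 2.14 ± 0.55 (adjusted p = 0.0926). So 3 of the 8 differed between brain and blood and 2 between brain and spleen, where 0.896% and 0.641% of all genes did. Between blood and spleen 0 of the 8 differed, against 0.400% of all genes, and 1 had an unadjusted p under 0.05 in limma, against 9.22%. The intervals of Ccr1 and Ccr2 between brain and blood were -0.91 to 0.70 and -0.49 to 1.17. In model-labelled and vehicle-labelled brains the SD was 1.16 and 1.49 for Ccl3 and 1.3 and 0.98 for Ccl4. In blood it was 0.18 and 0.18 for Ccl3 and 0.48 and 0.19 for Ccl4. With the variance pooled, their SEs between brain and blood lay close to those in brain alone (0.61 and 0.53). The pooled fit had 18 residual degrees of freedom, against 6 in brain alone, where most of their spread lay. For that reason the p-values of Ccl3 and Ccl4 between tissues may be too small. For Ccl2 the SE in brain alone was 0.50.

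Both Ccl2 and Ccl3 passed these tests in all 27 fits that left out an array and in all 6 alternative settings. Ccl4 against blood passed in 19 of the 27, with differences from 2.06 to 2.66 and adjusted p from 0.0035 to 0.0759 over all alternatives. It passed in 5 of the 6 settings and was lost with a variance trend and robust prior (2.43, limma adjusted p = 0.0573). It missed the threshold without blood vehicle 2 (2.40, 0.0506), blood model 1 (2.36, 0.0552), blood model 2 (2.37, 0.0535), blood sham 3 (2.53, 0.0624), blood sham 4 (2.40, 0.0639), blood sham 5 (2.37, 0.0759), brain sham 3 (2.43, 0.0549) or brain sham 5 (2.36, 0.0692). Against spleen it passed without brain vehicle 2 (2.37, 0.0173) and without brain model 3 (2.35, 0.0387), in a range of 0.00964 to 0.301. Ccl20 between brain and blood (0.93, adjusted p = 0.155) also passed without brain vehicle 2 (1.07, 0.0304) and without brain model 3 (1.08, 0.0342), in a range of 0.0304 to 0.455.

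The last comparison set vehicle-labelled against model-labelled rats. In the brain, 0 of the 8 genes passed in the limma fit, beside 0.0551% of all genes, and 3 had an unadjusted p under 0.05 (Ccl7, Ccl5 and Ccl20), beside 14.3% of all genes. The differences of the 6 ligands were negative, with a median over the 8 of -0.78 beside -0.01 over all genes. Ccl20 stood at -1.03 ± 0.32 (adjusted p = 0.239) and Ccl7 at -0.78 ± 0.28 (adjusted p = 0.277). For Ccl2 and Ccl3 the differences of -1.02 and -0.83 had intervals from -2.33 to 0.29 and from -2.42 to 0.76, which include both equal levels and several-fold lower ones. Both receptors lay near 0, Ccr1 at 0.00 ± 0.16 and Ccr2 at 0.06 ± 0.43, and Ccr2 was the 1 gene of the 8 with a positive difference. Markers of oligodendrocytes, the myelin-forming cells, also separated these brains: the mean of 9 markers was 7.59, 7.11 and 8.52 in model-labelled brains 1, 2 and 3 and 9.39, 8.66 and 8.87 in vehicle-labelled brains 2, 4 and 5, without overlap, and 7.95 to 8.67 in sham brains. All 9 had a positive difference between vehicle-labelled and model-labelled brains, with a median of 1.23, and 0 passed in limma, with 7 at an unadjusted p under 0.05. Their part in the chemokine differences was not tested.

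Ccl5 was lower on every vehicle-labelled than on every model-labelled array in each of the 3 tissues, a pattern picked out after the values were seen. In the brain the difference was -0.38 ± 0.13 (limma adjusted p = 0.258), in blood -0.55 ± 0.20 (adjusted p = 0.295) and in spleen -0.47 ± 0.18 (adjusted p = 0.303). The spleen values were 9.38, 9.39 and 8.69 in sham, 9.06, 9.33 and 8.94 in model-labelled and 8.74, 8.59 and 8.59 in vehicle-labelled rats. None passed the test, and such a separation held for 11.5%, 10.4% and 11.2% of all genes in the 3 tissues. The same 3 rats of each group gave all 3 tissues. Markers of T cells, a known source of Ccl5, had medians of 0.02, -0.43 and -0.54 for vehicle-labelled minus model-labelled brain, blood and spleen. The mean of 9 natural killer and cytotoxic cell markers was 4.02, 7.93 and 6.60 in model-labelled brain, blood and spleen. In vehicle-labelled rats it was 3.94, 7.76 and 6.72, higher only in spleen. The part of these cell types was not tested.

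In blood and spleen 0 of the 8 genes passed between vehicle-labelled and model-labelled rats, against 1.56% and 0% (0 genes) of all genes. At an unadjusted p under 0.05 in limma there were 2 and 1 of the 8, against 10.9% and 12.9% of all genes. Ccl2 and Ccl3 stood at 0.66 ± 0.31 and 0.33 ± 0.15 in blood and at 0.11 ± 0.56 and -0.32 ± 0.35 in spleen. Tests of whether this difference changed between tissues passed for 0 of the 8 in each pair, where 0.386% (brain and blood), 0.600% (brain and spleen) and 0.0276% (blood and spleen) of all genes passed. At an unadjusted p under 0.05 the limma fit held 1, 1 and 0 of the 8, against 11.3%, 15.9% and 6.78% of all genes. Ccl20 came nearest, at -1.06 ± 0.33 between brain and spleen (adjusted p = 0.126). It passed without brain vehicle 4 (-1.39, 0.0362) or brain model 3 (-1.38, 0.0319), in a range of 0.0319 to 0.277 over all alternatives.

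No other gene of the CC family passed the test. Of 13 other CC chemokines 12 were measured, and 0 passed in any comparison with sham or between MCAO groups in any tissue. Their MCAO differences in the brain ran from -0.25 for Ccl6 to 0.44 for Ccl12, a Ccr2 ligand of rodents, with a median of 0.13 and 0 of 12 at an unadjusted p under 0.05 in limma, against 11.3% of all genes. Of 12 other CC receptors and scavenger receptors 8 were measured, and 0 passed in these comparisons. In the brain they ran from -0.18 for Ccr9, a gut-homing receptor, to 0.16 for Ccr6, the receptor of Ccl20, with a median of 0.02, equal to that of all genes, and 0 of 8 at an unadjusted p under 0.05.

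Among 20 measured genes of signalling downstream of chemokine receptors, 1 rose in the brain after MCAO, where 0.800% of all genes passed. Rgs2, which shortens G-protein signals, measured 7.48 ± 0.17 (SD, n = 3) in sham, 9.23 ± 0.60 in model and 8.07 ± 0.15 in vehicle rats, a difference of 1.17 ± 0.22 (limma adjusted p = 0.0488). The call of Rgs2 held without model 2 or vehicle 2 and was lost without any of the other 7 arrays, with adjusted p of 0.0633 without model 1 to 0.227 without sham 4, and with quantile normalization (1.19, 0.0643) and median centring (1.15, 0.0705), in a range of 0.00152 to 0.227. The median of the 20 was 0.08. Of 14 measured genes known to induce CC chemokines or to carry the inducing signal, 1 rose beside the same 0.800%, the NF-kappaB inhibitor and target Nfkbia. It measured 6.67 ± 0.12 in sham, 8.56 ± 0.10 in model and 8.05 ± 0.24 in vehicle rats, a difference of 1.64 ± 0.12 (adjusted p = 0.00186) that passed in all 9 fits without an array and missed the threshold with the replicate number as a block (1.72, 0.0812), in a range of 3.68e-07 to 0.0812 over all alternatives. Of these 14 genes 13 had a positive difference, with a median of 0.50 beside 0.02 over all genes. The cytokines Tnf and Il1b, named for their role and not by the rule, stood at 0.87 ± 0.24 (adjusted p = 0.193; 1.03 and 0.0273 without vehicle 2, in a range of 0.00568 to 0.594) and 0.82 ± 0.33 (adjusted p = 0.384).

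In blood, 1 of the 14 inducing genes rose after MCAO, against 0.931% of all genes, the pattern receptor Tlr2, which measured 5.17 ± 0.06 in sham, 5.68 ± 0.10 in model and 5.94 ± 0.36 in vehicle rats (difference 0.65 ± 0.13, limma adjusted p = 0.0374). This call held without each vehicle array and was lost without any sham or model array, with adjusted p of 0.0575 without model 3 to 0.164 without sham 3, and with median centring (0.72, 0.0634), in a range of 0.0137 to 0.29. None of the 20 signalling genes passed in blood for both MCAO groups, with 3 at an unadjusted p under 0.05, against 9.89% of all genes. In the spleen neither list held a called gene after MCAO, with 1 of 20 and 1 of 14 at an unadjusted p under 0.05, against 8.16%. Between vehicle-labelled and model-labelled rats neither list held a called gene in any tissue. The unadjusted counts in limma were 4 of 20 and 4 of 14 in brain, 3 and 4 in blood, and 7 and 8 in spleen, where 14.3%, 10.9% and 12.9% of all genes did so.

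Genes most like 3 of the members were taken by the correlation of their values over 27 arrays, each centred on its tissue mean. The points share rats and groups, so r is a description only. Fosl1, an AP-1 subunit, came nearest to Ccl2 (r = 0.90, Spearman's rho = 0.906), followed by the scavenger receptor gene Olr1 (0.877) and the stress-induced factor Atf3 (0.867). Within tissues Fosl1 followed Ccl2 at r = 0.941 in brain and 0.912 in spleen and at 0.343 in blood, over 9 arrays each. In the same order of tissues r with Ccl2 was 0.97, 0.627 and 0.265 for Olr1 and 0.971, 0.758 and -0.244 for Atf3. Olr1 (0.926), Atf3 (0.923) and Nfkbiz, an NF-kappaB cofactor (0.913), came nearest to Ccl3. In brain, spleen and blood their r with Ccl3 was 0.967, 0.64 and 0.67 for Olr1, 0.968, 0.48 and -0.37 for Atf3 and 0.939, 0.738 and 0.488 for Nfkbiz. For the receptor Ccr1 the nearest were Vcan (0.793), Lilrc2 (0.776) and Bst1 (0.75), with r for Vcan of 0.931 in blood, 0.834 in spleen and 0.415 in brain. In brain, blood and spleen it was 0.626, 0.588 and 0.899 for Lilrc2 and 0.0978, 0.838 and 0.843 for Bst1.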

How the data were processed

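Labelled RNA of 27 samples was hybridized to Affymetrix rat Gene arrays. Per the submitters' processing notes the authors used RMA (background correction, between-array normalization, probe summary) in a version not given in the sources used here. No label names the scale. The deposited values were read as log2 intensities because they ran from 1.53 to 13.49 with array medians of 4.96 to 5.31. Of 27596 probe sets 15310 had 1 listed symbol, 323 several and 11963 no listed gene; the set with the highest mean was kept for each of 14506 genes.

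Tissues were tested one by one in R 4.3.3 with limma 3.58.1 (a mean per group by lmFit, moderated by eBayes, 2-sided, 6 residual degrees of freedom), and differences between tissues in a fit of 27 arrays (18 degrees of freedom). P-values were adjusted by Benjamini-Hochberg over all genes. The fit was tested on simulated data. The 8 genes and the lists were chosen with earlier results of these data known. All 8 were named; from each list of other genes, those called for both MCAO groups against sham or between MCAO groups, up to 4 per tissue by p. Outside this rule, and with their values seen, Ccl6, Ccl12, Ccr6 and Ccr9 are named as the ends of a range, Cd14, Nr4a1 and Olfml3 from the marker lists, and Tnf and Il1b for their role.

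Groups and rats come from the titles: numbers 3, 4 and 5 (sham), 1, 2 and 3 (model) and 2, 4 and 5 (vehicle) link the tissues of a rat but pair no groups. Deviations of a rat's tissues correlated with r from -0.0584 to 0.517, above 0.1 in 15 of 27 pairs. Alternatives changed normalization, a filter on genes under the 40th percentile of mean level, probes, variance model, array weights, arrays in the fit and blocks, and left out each array. Hybridization batches are not given in the labels, and batch and group cannot be told apart where they coincide.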

Additional observations from a re-analysis of the deposited data

Results flagged for a closer look

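By a test of the difference itself, the response to MCAO differed between brain and blood for 3 of the 8 genes and between brain and spleen for 2. Of all genes, 0.896% and 0.641% did so. The fit pooled the variance and the degrees of freedom of all tissues, so the p-values of Ccl3 and Ccl4 may be too small. For Ccl2 the difference of both MCAO groups from sham was larger in brain than in blood by 3.84 and larger than in spleen by 4.04 on the log2 scale. For Ccl3 the corresponding values were 4.13 and 4.63. For Ccl4, which did not pass in brain alone, the difference was larger in brain than in blood by 2.43. That call held in 19 of 27 fits without an array and was lost with a variance trend and robust prior (limma adjusted p = 0.0573). Against spleen Ccl4 did not pass (2.14, adjusted p = 0.0926). No explanation of these differences was tested.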

How the results depend on the processing

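Among the 8 genes in the brain after MCAO, 2 were called in the fit as reported, 0 with a variance trend and robust prior, 4 with array weights, 4 with all 27 arrays in 1 fit, and 0 to 2 when single arrays were left out. For model-labelled brains the 2 calls became 1 with the trend, 5 with array weights, 5 with all 27 arrays and 0 to 3 without single arrays. For vehicle-labelled brains the 0 calls became 2 with array weights, 2 with all 27 arrays, 2 without sham 5 and vehicle 2 together and 0 to 2 without single arrays. Between vehicle-labelled and model-labelled brains the 0 calls became 1 with all 27 arrays (Ccl20, -1.03, limma adjusted p = 0.0195, over a range of 0.0195 to 0.964), and in the test between brain and spleen they became 0 to 1 without single arrays. Quantile normalization, median centring and another choice of probes kept these counts within 1.5 times. The other comparisons kept theirs within that limit under each alternative run. The cause of these changes was not tested. Of 3886 values under alternatives, 128 changed sign, in 45 of 180 results, none of them called in either setting and none with a reported difference above 0.69 in size. Members under the 40th percentile of mean expression gave no value with that filter. Over all genes the brain MCAO count of 116 ran from 0 to 637, the model-labelled count of 168 from 0 to 573, the vehicle-labelled count of 7 from 0 to 369, and the count of 8 between MCAO groups from 0 to 346.

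With the replicate number as a block (replicate block), 0 of the 8 genes were called in brain for both MCAO groups and 0 for model-labelled rats, with Ccl2 at 3.90 (adjusted p = 0.133) and 4.98 (0.137). The labels give the numbers no shared meaning across groups, and deviations of same-numbered arrays correlated with r from -0.474 to 0.377 over 12 pairs. The rat as a block changed no count of calls among the 8 genes between sham tissues or between tissue responses. Signal over background was not assessed, so low values near 4 may hold little signal.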
